A study of Mus musculus with 175 samples.

Results

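The comparison set single P2+ common myeloid progenitors (CMPs) against single P2+ megakaryocyte-erythroid progenitors (MEPs) of the mouse fetal liver at embryonic day 14.5. Its cells were taken by the population named in their label, leaving out the cells that failed the limits on read number, unmapped reads and spike-in content, and 89 of the 172 cells of the series that passed those limits belonged to it, with 42 P2+ CMPs and 47 P2+ MEPs. One deposited P2+ CMP and 1 deposited P2+ MEP failed. Each cell was a library of its own, made with a modified Smart-Seq2 protocol that copies whole transcripts, and 0 cells had counts identical to those of another cell.

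All embryos came from C57BL/6 mice crossed with ICR mice. They carried a reporter in which human CD4 (hCD4) reports use of the P2 promoter on 1 Runx1 allele, from reporter males and wild-type ICR females, written P1-GFP::P2-hCD4/+ in the protocol and P2-GFP::P2-hCD4/+ in the genotype field, and the text follows the protocol and the methods of the study. Both populations were sorted as Lineage- KIT+ SCA1- cells that were CD16/32 low, CD41-, CD150+ and hCD4+, and CD34 separated them, the CMPs being CD34+ and the MEPs CD34-. The labels name the P2+ CMPs high, which was read as hCD4+. The reporter reads promoter activity through a surface protein, so a P2+ cell need not hold Runx1 mRNA at the time of lysis. The livers of 2 litters were pooled before sorting, so each population is 1 sample and no difference below has a replicate check, a p-value or a standard error. Intervals at 95% cover counting error only, and PCR copies are not independent molecules. Shares of cells describe this pool.

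The CMP and MEP gates divide the early myeloid tree. A CMP, as the name is used for cells with CD34 on their surface, still holds cells that can give granulocytes, macrophages, megakaryocytes and red cells, whereas a MEP is directed to the last pair. The red cell branch is driven by the zinc finger proteins GATA1 and KLF1 with the erythropoietin receptor, the granulocyte and macrophage branch by the ETS protein PU.1, which Spi1 encodes, and the megakaryocyte branch by FLI1 and RUNX1. PU.1 and GATA1 bind each other and each hinders the other's targets. Runx1 P2 is the proximal promoter of Runx1 and is active in stem and early progenitor cells.

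The P2+ CMPs had between 387473 and 1540631 reads on mouse genes per cell with a median of 804632, and the P2+ MEPs between 305186 and 1234330 with a median of 624148. Levels are counts per 1000000 (CPM) of the summed reads on mouse genes, 36351033 in P2+ CMPs and 31573710 in P2+ MEPs. The deeper sequencing of the CMPs does not enter a pooled level, but it enters the number of cells with a read, so each cell was thinned to 100000 reads before cells were counted. Thinned P2+ CMPs held a median of 5934 genes (5230 to 6905) and thinned P2+ MEPs 5483 (4555 to 6317), so the ranges overlapped. Spike-in reads were a median of 1.73% over P2+ CMPs and 2.48% over P2+ MEPs. Of the summed reads on mouse genes, mitochondrial genes held 3.59% and 4.68%, and the ribosomal RNA gene Rn18s-rs5 10.6% and 7.18%. The part of these differences in the results was not tested beyond the other scalings given at the end. Reads of both Xist and genes of the Y chromosome (Ddx3y, Eif2s3y, Kdm5d and Uty), at least 10 of each, stood in 0 P2+ CMPs and 1 P2+ MEP. Without that well the filter used below let 8177 genes pass in place of 8094, and the counts of genes became 765 and 528. These counts are therefore not on the same set of genes.

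Of 8094 genes that were read in 25% or more of the 89 cells and had a pooled level of at least 10 CPM in the higher population, 728 (8.99%) were at least 2-fold higher in P2+ CMPs and 529 (6.54%) at least 2-fold higher in P2+ MEPs. The median log2 ratio of P2+ CMP over P2+ MEP was -0.04. The filter counted reads before thinning, so the depth of the cells enters it. A positive log2 ratio stands for a higher level in P2+ CMPs throughout, and the shares of 8.99% and 6.54% are the background against which the counts of each gene group are to be read. Genes were then ranked by the smaller of the pooled ratio and the ratio without the cell of highest level in each population, which keeps single cells from placing a gene, and the 12 genes at each end were named. They were picked for this contrast, so their values are a description. The ratio without the top cells also drops the top cell of the lower population. Where that cell holds most of the few reads there, the ratio grows through that removal, so a larger value is not a stronger contrast.

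**Figure D1:**
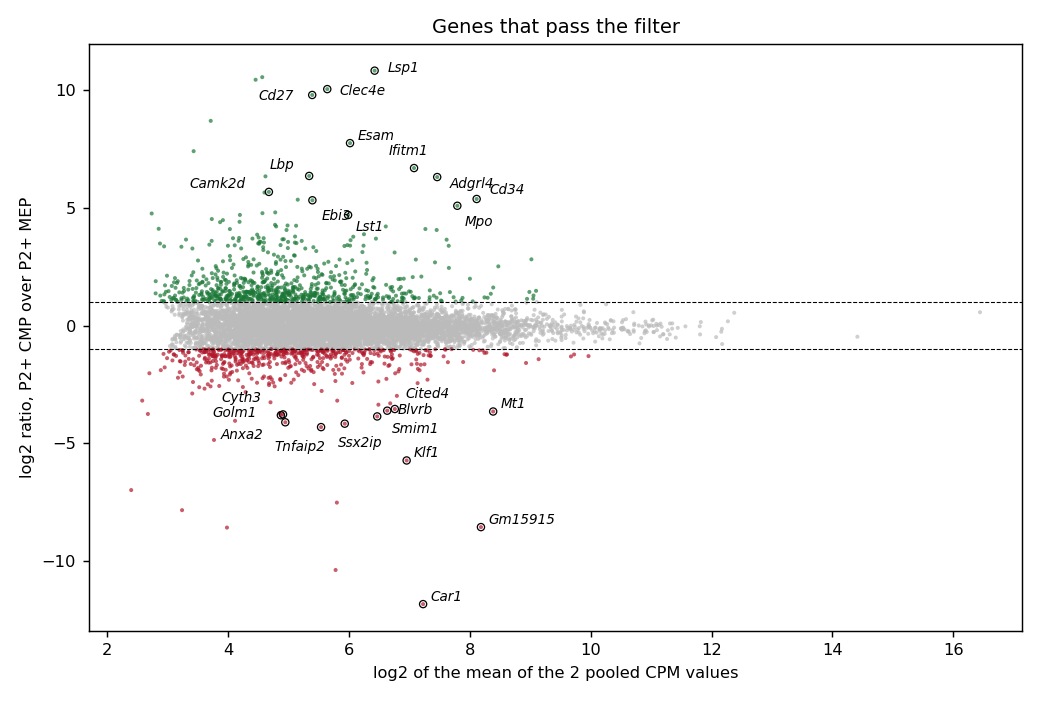
Each point is 1 of the 8094 genes, with the log2 of the mean of both pooled CPM values on the x axis and the log2 ratio of P2+ CMP over P2+ MEP on the y axis; dashed lines mark 2-fold, green and red points lie beyond it and circles mark the 24 named genes. The 12 named MEP genes lie between -3.54 (Cited4) and -11.83 (Car1) and the 12 named CMP genes between 4.69 (Lst1) and 10.82 (Lsp1), and a gene without a read in a population is drawn at its bound.

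The 12 genes ranked highest for P2+ MEPs were Car1, Gm15915, Klf1, Tnfaip2, Ssx2ip, Anxa2, Smim1, Golm1, Cyth3, Mt1, Blvrb and Cited4. Car1 encodes a carbonic anhydrase of red cells (ENSMUSG00000027556.15, chr3:14766216-14808368 on the minus strand of GRCm38). Its level ran from 0 to 2372 CPM with a median of 68.9 over P2+ MEPs, while it was 0 in all 42 P2+ CMPs. After thinning, 29 of 47 P2+ MEPs had a Car1 read. The pooled level of 299.7 CPM was at least 3631-fold higher than in P2+ CMPs, counting 3 reads over the population in place of 0, and 1 cell held 2928 of the 9462 reads. Klf1 (chromosome 8, 84901928 to 84905291, plus strand), the erythroid Krüppel-like factor, ran from 0 to 846 CPM with a median of 210.9 over P2+ MEPs and had a read in 40 of 47. In P2+ CMPs it was read in 2 of 42 cells, and 1 of them held 138 of all 167 reads. The pooled log2 ratio of Klf1 was -5.73 (-5.96 to -5.51), and -8.10 without the top cell of each population. Gm15915 (chr10:93674218-93683322, minus strand) is annotated as an antisense RNA, and its exons overlap those of no other gene. It was read in 44 of 47 P2+ MEPs against 2 of 42 P2+ CMPs, with 580.3 against 1.54 CPM and a log2 ratio of -8.56 (-8.96 to -8.18).

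Mt1, a metallothionein that binds zinc and copper, was the most abundant of the 12 in P2+ MEPs. It ran from 7.96 to 1616 CPM with a median of 552 in P2+ MEPs and from 0 to 329.9 CPM with a median of 9.53 in P2+ CMPs, so that the ranges met in their lower parts, and its log2 ratio was -3.65 (-3.72 to -3.58). Blvrb encodes a biliverdin reductase, which acts on a product of heme breakdown. It was read in 13 of 42 P2+ CMPs and 41 of 47 P2+ MEPs, at 14.99 and 184 CPM. Cited4, a partner of the acetyltransferase CBP, was read in 9 of 42 P2+ CMPs and 46 of 47 P2+ MEPs, with 17.1 and 199.5 CPM. Smim1, which carries the Vel blood group, stood at 11.4 CPM in P2+ CMPs and 166 CPM in P2+ MEPs, and 18.1% of its exon bases overlap another gene. Tnfaip2, Ssx2ip, Anxa2 (annexin A2, a membrane binding protein), Golm1 and Cyth3 had log2 ratios between -3.77 and -4.31, and 29.3% of the exon bases of Golm1 overlap another gene. Without the top cell of each population Tnfaip2, Anxa2 and Cyth3 were at -5.07, -4.70 and -4.85, and Gm15915 at -9.30. In all 12 genes the median P2+ MEP lay above 0, and in 11 of them, with the exception of Mt1, the median P2+ CMP was at 0.

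At the other end stood Lsp1, Clec4e, Cd27, Esam, Ifitm1, Lbp, Adgrl4, Camk2d, Cd34, Ebi3, Mpo and Lst1. Lsp1 (chr7:142460809-142494867, plus strand) encodes an actin binding protein of white cells. It ran from 0 to 574 CPM with a median of 136 over P2+ CMPs, was read in 31 of 42, and had 0 reads in P2+ MEPs, so its level of 172 CPM was at least 1809-fold higher. Clec4e (Mincle, a receptor for microbial glycolipids, chr6:123281789-123289870, minus strand) and Cd27 (a costimulatory receptor of the TNF receptor family that also marks early progenitors, chr6:125232622-125237010, minus strand) had 0 reads in P2+ MEPs too. They were read in 27 and 28 of 42 P2+ CMPs at 99.8 and 83.99 CPM, at least 1051-fold and at least 884-fold higher. Mpo, the myeloperoxidase of granulocyte granules, ran from 0 to 1368 CPM with a median of 294.8 in P2+ CMPs, with a read in 40 of 42. In P2+ MEPs it ran from 0 to 313.5 CPM with a median of 0 and was read in 10 of 47, and the log2 ratio was 5.08 (4.94 to 5.23).

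Esam and Adgrl4, both surface proteins best known from endothelium, were read in 31 and 39 of 42 P2+ CMPs and in 1 and 4 of 47 P2+ MEPs. Their pooled levels were 129 and 347.8 CPM in P2+ CMPs against 0.602 and 4.40 CPM, with log2 ratios of 7.74 and 6.30. All 19 Esam reads of the P2+ MEPs came from 1 cell. Ifitm1, of the interferon-induced transmembrane proteins, stood at 267.4 against 2.60 CPM, and 1 P2+ CMP held 1947 of its 9722 reads. Lbp, which binds bacterial lipopolysaccharide, Ebi3, a subunit of interleukins, and Lst1, a small leukocyte protein, stood at 80.1, 82.1 and 122 CPM in P2+ CMPs and at 0.982, 2.06 and 4.72 CPM in P2+ MEPs. Of the exon bases of Ebi3 and Mpo, 23.4% and 14.95% overlap another gene. For Camk2d and Lbp all 31 reads of the P2+ MEPs came from 1 cell each. Without the top cells 0 reads were left there, so that the log2 ratios of 5.67 and 6.35 became bounds of 8.84 and 9.54, and Esam likewise went to a bound of 10.28. Leaving out the top cells took Ifitm1 from 6.69 to 8.48 and Ebi3 from 5.32 to 6.51. The P2+ MEP left out held 63 of 82 Ifitm1 reads and, for Ebi3, 39 of 65 reads of that population.

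**Figure D2:**
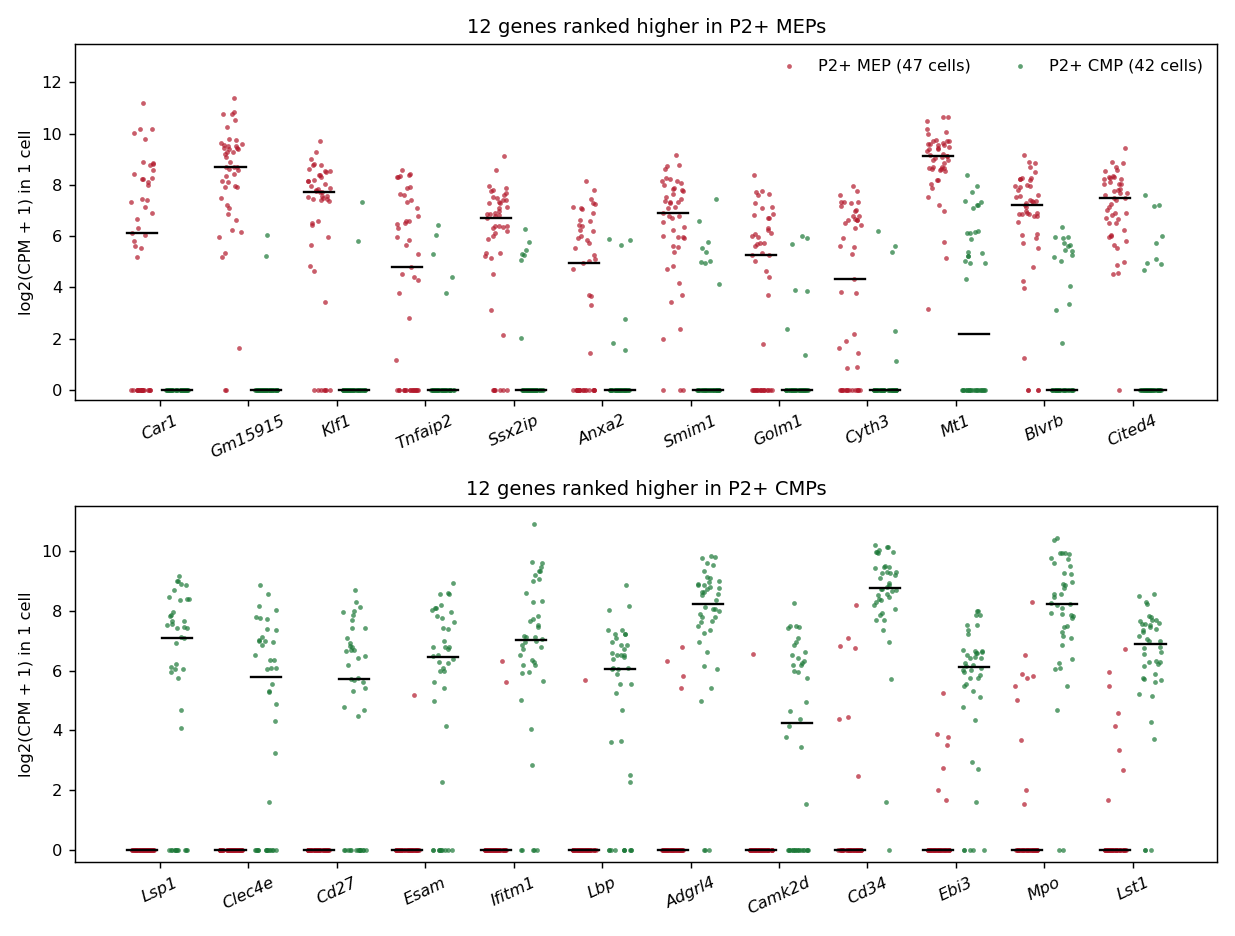
Each point is 1 cell, with log2(CPM + 1) on the y axis, for the 12 genes ranked highest for P2+ MEPs (upper panel) and for P2+ CMPs (lower panel); red points are the 47 P2+ MEPs, green points the 42 P2+ CMPs and black bars the medians over cells. Most P2+ CMPs lie at 0 for 11 of the 12 MEP genes, and Lsp1, Clec4e and Cd27 have no P2+ MEP above 0.

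The bases just upstream of the start of the 2 best ranked genes of each direction that RefSeq's promoter table (GRCm38.p6) holds are shown, as the sequences beside the named genes at the head of the ranking. Capitals mark a match to GATAAG, the core that GATA factors bind, read on either strand. The windows of Gm15915 (chr10:93683323-93683572, minus strand) and Klf1 (chr8:84901732-84901927, plus strand) stand for P2+ MEPs, and those of Clec4e (chr6:123289872-123290121, minus strand) and Cd27 (chr6:125237028-125237277, minus strand) for P2+ CMPs. Each runs 5′ to 3′ and has 250 bases, but for Klf1, which was cut to 196 bases where its gene begins in GENCODE.
Gm15915: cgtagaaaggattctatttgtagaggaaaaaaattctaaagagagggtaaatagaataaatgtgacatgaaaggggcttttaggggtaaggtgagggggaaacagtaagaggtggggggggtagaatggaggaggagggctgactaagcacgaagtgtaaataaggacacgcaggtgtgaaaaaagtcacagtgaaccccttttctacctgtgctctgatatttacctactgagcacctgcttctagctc
Klf1: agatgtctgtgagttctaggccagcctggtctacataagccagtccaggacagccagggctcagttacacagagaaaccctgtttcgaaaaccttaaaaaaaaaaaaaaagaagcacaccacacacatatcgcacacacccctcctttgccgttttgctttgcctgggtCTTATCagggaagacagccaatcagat
Clec4e: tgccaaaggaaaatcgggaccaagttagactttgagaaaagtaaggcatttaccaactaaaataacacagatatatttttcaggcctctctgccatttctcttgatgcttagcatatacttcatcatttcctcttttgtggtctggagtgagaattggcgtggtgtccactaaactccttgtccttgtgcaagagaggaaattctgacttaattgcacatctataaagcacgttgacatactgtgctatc
Cd27: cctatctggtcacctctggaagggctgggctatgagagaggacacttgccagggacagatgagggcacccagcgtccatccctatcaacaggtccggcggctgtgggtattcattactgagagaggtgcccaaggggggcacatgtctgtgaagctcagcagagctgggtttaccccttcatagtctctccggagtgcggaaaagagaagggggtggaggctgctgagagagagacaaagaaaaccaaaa

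Klf1 alone of the 4 held a match, the letters CTTATC starting 81 bases before the RefSeq start. Among the 12 ranked genes of each direction, the GATA motif was in 1 of 11 windows of MEP genes and in 0 of 8 windows of CMP genes that the table holds. It was in 4.35% of 414 windows of genes at least 2-fold higher in P2+ MEPs, 3.21% of 560 of those higher in P2+ CMPs, 4.27% of 6253 of the genes that pass and 6.58% of all 27025 windows of the same length. The ETS motif GGAAGT was in 23.7%, 23.6%, 25.1% and 19.9% of these sets, and the KLF motif CCACACCC in 3.86%, 3.21%, 3.50% and 3.22%. All motifs were read on both strands, and their letters do not overlap one another. The shares of both called sets lay close to those of the genes that pass.

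Cd34 was the gene of the gate, so its level is a check on the sort and not a result. It ran from 0 to 1170.4 CPM with a median of 432 in P2+ CMPs and from 0 to 291.2 CPM with a median of 0 in P2+ MEPs. After thinning, 40 of 42 P2+ CMPs and 5 of 47 P2+ MEPs had a Cd34 read, so a few cells of each side went against the gate at the level of RNA. Among the other surface proteins of the sort, which both populations were required to share, Kit stood at 259.3 CPM in P2+ CMPs and 262.2 CPM in P2+ MEPs (log2 ratio -0.02) and Slamf1, which encodes CD150, at 69.3 and 97.2 CPM (-0.49). Itga2b encodes CD41, which neither gate admitted, and it was read in 21 of 42 P2+ CMPs and 32 of 47 P2+ MEPs, with a log2 ratio of -1.40 (-1.49 to -1.31). Fcgr3, for CD16, was read in 5 P2+ CMPs and Ly6a, for SCA1, in 3, and both had 0 reads in P2+ MEPs. Fcgr2b, for CD32, had 103 reads against 156 (-0.80), with 2 P2+ CMPs against 3 P2+ MEPs.

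Runx1 itself was higher in P2+ CMPs. It ran from 4.41 to 629 CPM with a median of 133 there and from 0 to 273.2 CPM with a median of 56.6 in P2+ MEPs, the log2 ratio was 1.45 (1.37 to 1.53), and nearly the same number of cells had a read, 40 of 42 and 41 of 47. The counts do not tell transcripts of the P1 and P2 promoters apart. Its cofactor Cbfb stood at 84.5 and 59.4 CPM (0.51) and Runx3 at 51.6 and 96.00 CPM (-0.90), whereas Runx2 was read in 16 of 42 P2+ CMPs and 2 of 47 P2+ MEPs (2.41, and 4.34 without the top cells). Of further genes on the list of sorting and screen genes, Cd48, a SLAM family protein, ran from 0 to 1243 CPM with a median of 452 in P2+ CMPs and from 0 to 549 CPM with a median of 148 in P2+ MEPs (log2 ratio 1.61). Eng, a receptor of the TGF-beta family, had a log2 ratio of 1.92 and Ptprc, which encodes CD45, of 2.30, with a read in 40 of 42 against 14 of 47 cells. Pecam1, which encodes CD31, was sparse in both at 14.9 and 17.4 CPM (-0.22), Itgb1 was level at 189 and 187 CPM (0.01), and Tek and Cd55 had log2 ratios of 0.53 and 0.89. The Cd55 ratio was 1.34 without the top cell of each population.

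Erythroid genes were the group with the widest difference towards P2+ MEPs. Of its 30 genes 14 passed the filter, 11 were at least 2-fold higher in P2+ MEPs and 1 in P2+ CMPs, and their median log2 ratio was -2.99, with genes at 0 reads taken at their bound. Over all genes that pass the shares were 6.54% and 8.99% and the median -0.04. A gene low in 1 population passes through the other, so the counts over genes that passed describe the lists and test nothing, and a gene of several lists counts in each. Gata1, the factor of the branch, ran from 25.99 to 626 CPM with a median of 178 in P2+ MEPs and was read in all 47. In P2+ CMPs it ran from 0 to 279.5 CPM with a median of 0 and was read in 19 of 42, so that the ranges overlapped, with a log2 ratio of -2.45 (-2.53 to -2.37). Epor, the erythropoietin receptor, stood at 84.1 against 22.8 CPM and Tfrc, the transferrin receptor that brings in iron, at 95.1 against 23.1 CPM, log2 ratios of -1.88 and -2.04. Ermap, a red cell surface protein, and Ank1, an anchor of the membrane skeleton, had 0 reads in P2+ CMPs and 109.8 and 18.9 CPM in P2+ MEPs. Aqp1, a water channel, stood at 24.5 against 6.66 CPM (-1.88, and -2.55 without the top cells). Nfe2 and Car2 were within 2-fold, at -0.49 and -0.32. Below the filter, Kel, a blood group protease, was read in 16 P2+ MEPs, Sptb, the spectrin beta chain, in 14, Tspo2 in 11, Rhag in 7 and Rhd in 4, at 40.3, 14.2, 24.5, 21.3 and 5.42 CPM. In P2+ CMPs Rhag was read in 2 cells and the other 4 in 0, and Kel, Tspo2 and Rhd had 0 reads. Epb42, a protein of the red cell membrane skeleton, had 58 reads in 1 P2+ CMP and 0 in P2+ MEPs. Hemgn was read in 9 P2+ CMPs and 10 P2+ MEPs. Slc4a1, the anion exchanger, was read in 1 P2+ MEP, and Alas2 in 4 P2+ MEPs against 1 P2+ CMP. The adult beta globin copies pointed in opposite directions, Hbb-bs at 111 against 0.605 CPM in favour of P2+ MEPs and Hbb-bt at 121 against 9.79 CPM in favour of P2+ CMPs. They are near-identical copies whose shared reads were not counted, so both values are uncertain, and Hbb-bs went from -7.52 to -9.29 without the top cells.

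The enzymes of heme synthesis did not move as a block. Of the 16 genes of heme synthesis and iron that passed, 6 were at least 2-fold higher in P2+ MEPs, 2 in P2+ CMPs and 8 lay within 2-fold (median log2 ratio -0.53). Alas1, the first enzyme of the pathway in cells of any type, was higher in P2+ CMPs, at 55.3 against 22.1 CPM (1.32). The later enzymes Alad (-1.90), Urod (-1.27), Cpox (-2.99) and Fech (-2.05) were higher in P2+ MEPs, and Cpox was read in 43 of 47 P2+ MEPs against 21 of 42 P2+ CMPs. Uros and Ppox, which lie between them, were within 2-fold, at 0.36 and -0.44. Steap3, which reduces iron in endosomes, had the lowest ratio, at -3.19. The ferritin genes Fth1 and Ftl1 were level, at -0.07 and 0.04. Hmox2, a heme oxygenase, was at 1.03, and 40.2% of its exon bases overlap another gene. Its call was lost without the cells whose Cd34 reads went against the gate (0.99).

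Megakaryocytic genes were split. Of 25 genes 13 passed, 4 were at least 2-fold higher in P2+ MEPs (Gp5, Gp1ba, Itga2b and Nrgn, the last at -1.03 and at -0.90 without the top cells), 1 was higher in P2+ CMPs and 8 lay within 2-fold, with a median of -0.34. Gp5 and Gp1ba encode parts of the platelet receptor for von Willebrand factor. Gp5 was read in 35 of 47 P2+ MEPs against 10 of 42 P2+ CMPs (-2.49) and Gp1ba in 18 and 11 (-1.65), while Gp9, of the same receptor, was read in 21 and 21 cells (-0.76). Fli1, the ETS factor of the branch, was at 0.19, Mef2c at -0.18 and Plek, the platelet protein pleckstrin, at -0.34. Treml1 of the same list was read in 21 of 42 P2+ CMPs and 27 of 47 P2+ MEPs (-0.23). Some platelet genes were sparse or at 0. Pf4 was read in 5 P2+ CMPs and 1 P2+ MEP, Itgb3 and Tubb1 in 2 and 2 P2+ CMPs and 0 P2+ MEPs, and Ppbp had no read. Thbs1, thrombospondin, failed the filter, with 8 P2+ MEPs and 5 P2+ CMPs. Also below it, Gp1bb, of the von Willebrand factor receptor, was read in 5 P2+ CMPs against 15 P2+ MEPs, F2rl2, a protease-activated receptor, in 7 against 13, Vwf itself in 2 against 6 and Clec1b, the receptor CLEC-2, in 0 against 1.

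Granulocyte and monocyte genes lay on the side of the P2+ CMPs. Of 24 genes 8 passed, 7 were at least 2-fold higher in P2+ CMPs and 0 in P2+ MEPs, with a median of 3.28. Spi1 ran from 0 to 439.7 CPM with a median of 113 in P2+ CMPs and from 0 to 161 CPM with a median of 0 in P2+ MEPs, where 21 of 47 cells still had a read, and the log2 ratio was 2.20 (2.09 to 2.30). Csf3r, the receptor of G-CSF, had 1720 reads in P2+ CMPs and 1 read over all P2+ MEPs, and its log2 ratio was 10.54 (8.06 to 15.85). Csf2rb, the shared chain of the receptors for GM-CSF, IL-3 and IL-5, was at 3.16, and Csf2ra, the private chain of the GM-CSF receptor, at 0.95. Prtn3, a granule protease, was read in 33 of 42 and 15 of 47 cells (1.85), Lyz2, a lysozyme, in 34 and 6 (3.39) and Tyrobp, an adaptor of myeloid receptors, in 25 and 1 (6.33). Without the top cells Tyrobp was at 9.45, Csf2rb at 4.42 and Csf3r, then at a bound, at 8.71. Some other genes of the list were read in few cells or none. Elane was read in 1 P2+ CMP, Cebpa in 1 P2+ CMP and 1 P2+ MEP, Ctsg in 0 cells after thinning, and Cebpe and Ly6c2 had no read. Ms4a3 lay on the other side, with 1 read in P2+ CMPs against 116 reads in P2+ MEPs, where it was read in 2 cells. Below the filter, Gfi1, a repressor needed for granulocytes, and Irf8, a factor of monocytes, were read in 11 and 14 P2+ CMPs and in 0 and 4 P2+ MEPs.

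Genes of stem and multipotent cells followed. Of 25 genes 22 passed, 13 were at least 2-fold higher in P2+ CMPs and 3 in P2+ MEPs, with a median of 1.45, and Cd34 of the gate is among the former. Mecom, the zinc finger factor EVI1, had 1 read in P2+ MEPs against 1594 in P2+ CMPs, where it was read in 18 of 42 cells (10.44, 7.95 to 15.74). Mycn, of the Myc family, ran from 0 to 574 CPM with a median of 162 in P2+ CMPs and from 0 to 99.6 CPM with a median of 0 in P2+ MEPs (4.21). Hlf, Erg, Hoxa9 and Cd93 had log2 ratios of 4.06, 4.47, 3.42 and 3.69. Hlf and Hoxa9 are transcription factors of stem cells, ERG is an ETS factor needed by them, and CD93 is a surface protein of early progenitors. Of the 41 Erg reads of the P2+ MEPs, 40 came from 1 cell, and without the top cells Erg was at 9.69, Sox4 at 2.14 and Mecom, then at a bound, at 8.54. Angpt1, the ligand of TEK, was at 2.14. Lower ratios stood at Msi2 (1.56), Sox4 (1.51), Hmga2 (1.45) and Hhex (1.23), and 54.6% of the exon bases of Sox4 overlap another gene. Hmga2, a chromatin protein of fetal stem cells, was read in all 42 P2+ CMPs and in 29 of 47 P2+ MEPs. Its fetal regulator Lin28b lay on the other side, at 23.2 CPM in P2+ CMPs and 51.5 CPM in P2+ MEPs (-1.15). Meis1, Mllt3, Bmi1 and Etv6 were within 2-fold (0.82, 0.59, 0.66 and 0.24), as were Kit and Myb.

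The transcription factors of the branch point were split. Of 26 that passed, 7 were at least 2-fold higher in P2+ CMPs (Spi1, Runx1, Mecom, Hoxa9, Runx2, Erg and Cebpb) and 8 in P2+ MEPs (Klf1, Gata1, Zfpm1, Tal1, Lmo2, Ldb1, Gata2 and Ikzf1). Zfpm1 encodes FOG1, the cofactor of GATA1, and Tal1, Lmo2 and Ldb1 encode partners that sit with GATA1 on DNA. Lmo2, the most abundant, ran from 276.4 to 1367 CPM with a median of 749 in P2+ MEPs and from 0 to 723 CPM with a median of 228.4 in P2+ CMPs (-1.59). Tal1 was at -1.68, Zfpm1 at -1.84 and Ldb1 at -1.19, and each was read in at least 29 of 42 P2+ CMPs, so these genes differed in level more than in presence. Lyl1, the closest relative of Tal1, was at 0.37. Gata2, which precedes Gata1 in stem cells and progenitors, was read in 46 of 47 P2+ MEPs against 33 of 42 P2+ CMPs, with 212.1 and 102 CPM (-1.06). The calls of Gata2 and Ikzf1 were marginal, since equal weight for every cell gave -0.82 and -0.89. Bcl11a, the repressor of embryonic globins, Gfi1b and Nfe2 stood at -0.99, -0.94 and -0.49.

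Among 23 surface receptors and adhesion genes that passed, 8, with Cd34 of the gate among them, were at least 2-fold higher in P2+ CMPs and 2 in P2+ MEPs. The latter were Spn, which encodes the sialoprotein CD43 (121 against 30.4 CPM, -1.99), and Icam2, a ligand of integrin LFA-1 (-1.16, but -0.96 with equal weight for every cell). Cd24a, a small glycoprotein used to follow erythroid and lymphoid cells, was higher in P2+ CMPs, running from 0 to 868 CPM with a median of 269.2 there and from 0 to 966 CPM with a median of 44.7 in P2+ MEPs (1.20). The integrin chains Itga4, Itga6, Itgal, Itgb1 and Itgb2 were all within 2-fold, between -0.55 and 0.76. Among 16 cytokine receptors and feedback genes, 6 were higher in P2+ CMPs and 2 in P2+ MEPs. Epor and the kinase Jak2 that it uses were higher in P2+ MEPs (-1.88 and -1.38), whereas Stat5a and Stat5b, which that kinase activates, were within 2-fold (-0.88 and -0.61). Socs2, a feedback inhibitor induced by STAT5, was higher in P2+ CMPs, at 92.1 against 25.2 CPM (1.87), as were Tnfrsf1a (1.79) and Ifnar1 (1.03). The call of Ifnar1 was lost with DESeq2 size factors (0.90), without the top cells (0.89) and without the cells whose Cd34 reads went against the gate (0.84). Flt3, a receptor of multipotent cells, failed the filter, with a read in 12 of 42 P2+ CMPs and 0 reads in P2+ MEPs.

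The pooled levels of cell division genes lay mostly within 2-fold. Of 16 DNA replication genes, all passed and 0 reached 2-fold in either direction (median 0.07, from -0.55 for Rrm2 to 0.70 for Rfc4), and Pcna, the sliding clamp, stood at 459 and 416 CPM. Of 16 mitosis genes 1 reached it, Kif23, at 1.12 (median 0.04), and its call was lost with equal weight for every cell (0.93) and with DESeq2 size factors (0.91). The summed level of the mitosis list ran from 273.7 to 7829 CPM with a median of 2146 in P2+ CMPs and from 1253 to 6251 CPM with a median of 2547 in P2+ MEPs, so that 23 of 42 CMPs lay in the range of the MEPs and all 47 MEPs in that of the CMPs. Mki67 was the lowest at -0.74, while Cdk1 and Aurka were at 0.96 and 0.96. Immediate early and stress genes, which handling can induce, had 0 of 11 past 2-fold, with Fos at 407 and 435 CPM. Of the genes of other cell types, 0 of 14 lymphoid, 0 of 12 macrophage and 0 of 10 hepatocyte genes passed the filter. Their summed levels were at most 237.2 CPM in any cell, Cd3e, Rag1, Adgre1, C1qa, C1qb and Alb were at 0 reads in both populations, and Afp, the highest hepatocyte gene, was at 10.3 CPM in P2+ CMPs and 5.92 in P2+ MEPs. Of the mast cell and basophil genes only Srgn, which many blood cells express, passed (0.69), 7 of 11 had no read, and Cpa3, which progenitors of mast cells share, was read in 7 P2+ CMPs and 2 P2+ MEPs.

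Of the 10 endothelial genes 4 passed and 3 were higher in P2+ CMPs, Esam, Tie1 (3.52) and Egfl7 (1.49), with Tek at 0.53. Their summed level ran from 58.6 to 2227 CPM with a median of 435 in P2+ CMPs and from 0 to 258.5 CPM with a median of 114 in P2+ MEPs. The defining markers Cdh5 and Kdr, for VE-cadherin and the receptor of VEGF, were at 0.743 and 1.79 CPM in P2+ CMPs and Lyve1 and Stab2, of the liver sinusoids, at 0 and 1.35 CPM. Emcn, which blood stem cells and endothelium both express, missed the filter by number of cells, with a read in 22 of 42 P2+ CMPs before thinning and 0 reads in P2+ MEPs.

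**Figure D3:**
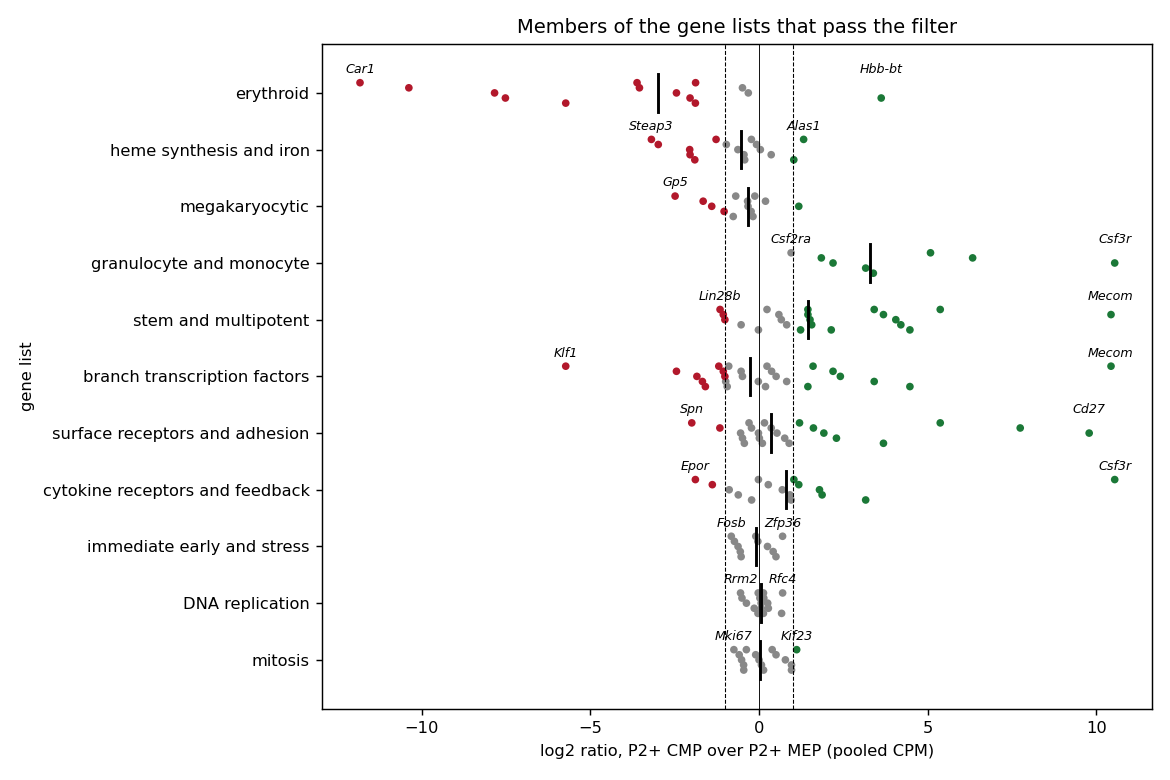
Each point is a gene that passes the filter, placed by its log2 ratio of P2+ CMP over P2+ MEP on the x axis and by its list on the y axis; green and red points lie beyond 2-fold (dashed lines), black bars are medians, and a gene in several lists is drawn in each. The erythroid median is -2.99 and the granulocyte and monocyte median 3.28, while DNA replication, mitosis and immediate early genes gather around 0.

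In single cells the groups overlapped to different degrees. The summed level of the erythroid list ran from 493 to 6942 CPM with a median of 1896 in P2+ MEPs and from 85.4 to 1512 CPM with a median of 747 in P2+ CMPs. For it 29 of 42 CMPs lay within the range of the MEPs and 16 of 47 MEPs within that of the CMPs. The granulocyte and monocyte list ran from 216.1 to 2254 CPM with a median of 945 in P2+ CMPs and from 0 to 518 CPM with a median of 93.5 in P2+ MEPs, and 8 CMPs and 6 MEPs lay in the range of the other. The stem and multipotent list ran from 1061 to 4397 CPM with a median of 2963 and from 702 to 2685 CPM with a median of 1465, with 36 of 47 MEPs in the range of the CMPs and 16 of 42 CMPs in that of the MEPs. The megakaryocytic list ran from 487 to 3757 CPM with a median of 966 in P2+ CMPs and from 69.9 to 6278 CPM with a median of 891 in P2+ MEPs. For it all 42 CMPs lay in the range of the MEPs and 25 of 47 MEPs in that of the CMPs. By presence of the 24 ranked genes after thinning, which were chosen on these cells, a P2+ CMP had a read of 3 to 12 of the 12 CMP genes (median 10) and of 0 to 6 of the MEP genes (median 2), and a P2+ MEP of 0 to 4 of the CMP genes (median 0) and of 6 to 12 of the MEP genes (median 9). The counts of CMP genes therefore met at 3 and 4, and those of MEP genes at 6. Cd34 of the gate is counted among the CMP genes.

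Of the 42 P2+ CMPs, 1 had a read of 9 of the 12 CMP genes and of 6 of the 12 MEP genes, and 1, with 3 and 5, had more MEP than CMP genes. The P2+ CMP with most Klf1 reads had a read of 6 of the 12 CMP genes and of 6 of the 12 MEP genes, with 160.3 CPM of Klf1, 124 CPM of Gata1, 179 CPM of Gfi1b, 203.3 CPM of Cd34, 65.1 CPM of Mpo and 67.4 CPM of Spi1, and 0 reads of Car1 and Lsp1. Without it 8164 genes passed the filter in place of 8094, of which 766 were at least 2-fold higher in P2+ CMPs and 531 in P2+ MEPs. Gata1 and Spi1 were read together in 17 of 42 P2+ CMPs, where 23 had Spi1 alone and 2 Gata1 alone, and in 21 of 47 P2+ MEPs. All 47 P2+ MEPs had a Gata1 read, so the last count is that of Spi1. Gata2 was read beside Gata1 in 46 of 47 P2+ MEPs, against 18 of 42 P2+ CMPs, of which another 15 had Gata2 alone and 8 neither gene.

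**Figure D4:**
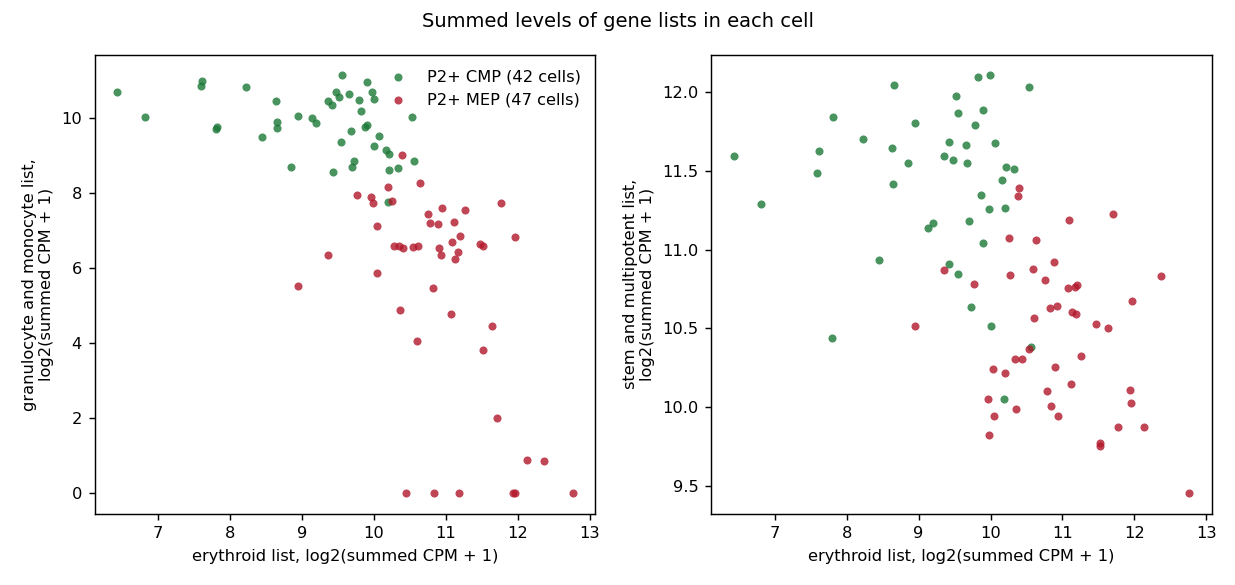
Each point is 1 cell, with the summed level of the erythroid list on the x axis and that of the granulocyte and monocyte list (left) or the stem and multipotent list (right) on the y axis, all as log2(summed CPM + 1); green points are the 42 P2+ CMPs and red points the 47 P2+ MEPs. The populations meet at the middle of the erythroid axis, where 29 of 42 CMPs lie in the range of the MEPs and 16 of 47 MEPs in that of the CMPs. On the granulocyte and monocyte axis 8 CMPs and 6 MEPs lie in each other's range.

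The same ratio among P2- cells was set beside these values, with 27 P2- CMPs and 56 P2- MEPs from the same pool. One of the P2- CMPs is labelled as a MEP in another field. Leaving it out moved 2 of the 183 named genes that pass across 2-fold (Tal1 and Junb) and changed the sign of 0 of those past 2-fold. Of the 8094 genes, 1118 (13.8%) were at least 2-fold higher in P2- CMPs and 482 (5.96%) in P2- MEPs. Megakaryocytic genes lay apart between the 2 comparisons. Of the 13 that pass, 10 were at least 2-fold higher in P2- CMPs than in P2- MEPs, against 1 among P2+ cells, and 1, Gp1ba, was at least 2-fold higher in P2- MEPs (-4.38). Their median log2 ratios were 2.17 and -0.34. Gp9 was read in 12 of 27 P2- CMPs and 0 of 56 P2- MEPs, but in 21 of 42 P2+ CMPs and 21 of 47 P2+ MEPs. Fli1 went from 3.86 to 0.19 and Plek from 4.27 to -0.34. The difference between these pairs of ratios was not tested, there being 1 pool.

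The ratios were then set against each other for the 4710 genes that, in thinned P2+ cells, were read in 25% of all cells and 50% of those of a population, with at least 50 CPM in any of the 4 populations. The 5 genes whose ratio was lowest among P2+ relative to P2- cells were Car1, Gp9, Mmrn1, Serpina3g and Rbpms. Of these, Mmrn1 (multimerin, a protein of platelet granules), Serpina3g (a serine protease inhibitor) and Rbpms (an RNA binding protein) had 1 read each in all P2- MEPs, against 21.6, 19.9 and 17.01 CPM in P2+ MEPs. In CMPs they stood at 40.7, 208.7 and 75.2 CPM (P2-) and 50.5, 330.3 and 116 CPM (P2+). The P2+ ratio of Serpina3g was 4.06, and 5.20 without the top cells. Car1 was read in 5 of 27 P2- CMPs and 40 of 56 P2- MEPs at 55.6 and 111 CPM, a log2 ratio of -0.99 beside the bound of -11.83 among P2+ cells. By the same criteria, the 5 genes highest among P2+ relative to P2- cells were Cd27, Cd24a, Sgol1, Nek6 and Grpel2. Cd27 was at 37.5 CPM in P2- CMPs and 0.588 CPM in P2- MEPs, against 83.99 and 0 CPM among P2+ cells. Nek6, a mitotic kinase, was at 0.41 among P2- and 2.63 among P2+ cells, and Sgol1, which protects centromeric cohesion, at -1.49 and 0.74.

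Immediate early and stress genes, with 0 of 11 past 2-fold among P2+ cells, had 6 of 11 at least 2-fold higher in P2- CMPs than in P2- MEPs. Erythroid and granulocyte genes pointed the same way in both. The erythroid median was -2.43 among P2- and -2.99 among P2+ cells, and that of granulocyte and monocyte genes 7.47 and 3.28. Of the 7638 genes that pass among P2+ and among P2- cells, 511 were at least 2-fold higher in P2+ CMPs and 839 in P2- CMPs, and the genes in both were 55.4% of the former and 33.7% of the latter. For MEPs the sets held 504 and 460 genes, of which 29.96% and 32.8% were shared. The background of the 55.4% is 839 of 7638 genes and that of the 33.7% is 511 of 7638. For the MEP shares it is 460 and 504 of 7638, in that order. In the opposite direction, at least 2-fold each way, stood 35 genes, among them Gata2, Cd24a and Nrgn of the gene lists. Gata2 was at 174 CPM in P2- CMPs and 35.2 CPM in P2- MEPs, against 102 and 212.1 CPM in P2+ CMPs and P2+ MEPs.

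**Figure D5:**
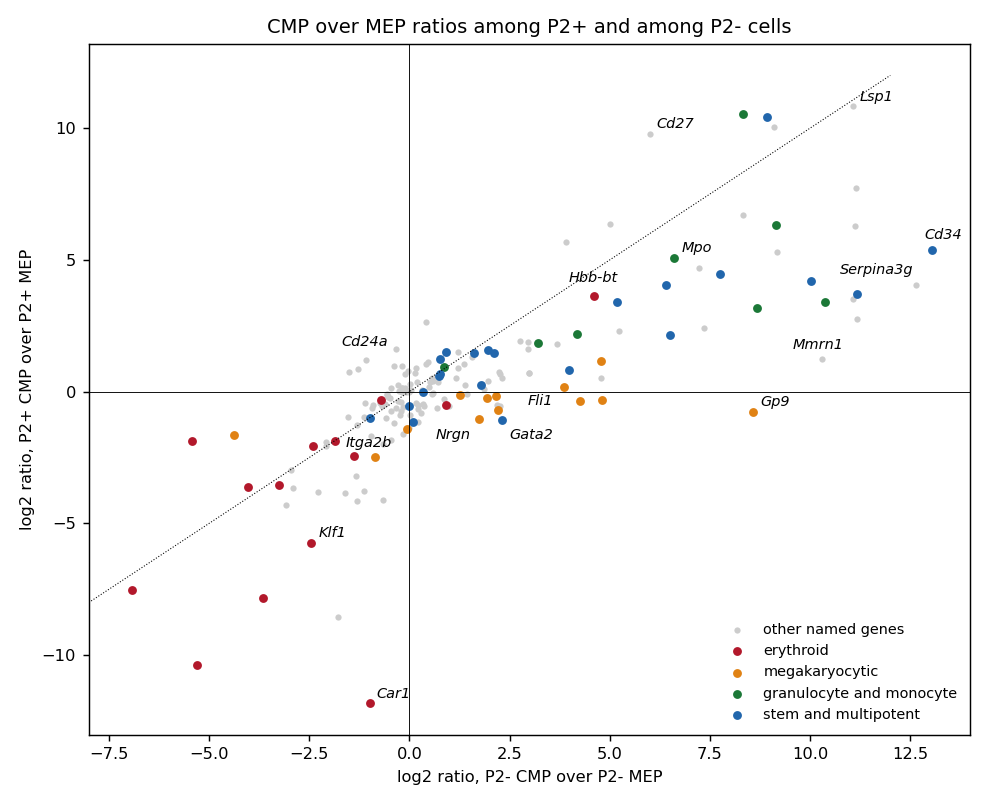
Each point is a ranked or list gene that passes the filter, with its log2 ratio of CMP over MEP among P2- cells on the x axis and among P2+ cells on the y axis; the dotted line marks equal ratios and colours mark 4 gene lists. Of the 13 megakaryocytic genes (orange) 10 lie beyond 2-fold on the right, as Gp9 with 8.58 and -0.76, and 1 beyond it on the left, Gp1ba with -4.38 and -1.65, and a gene without reads in a population is drawn at its bound.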

How the data were processed

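Single cells were sorted into wells with ERCC spike-in RNA, which comprised 92 sequences, and each cell was sequenced as a library of its own. The authors trimmed the paired-end reads with Trimmomatic 0.36, mapped them with STAR 2.4.2a to GRCm38 with the spike-in sequences, and counted reads over exons of the GENCODE M12 annotation with HTSeq 0.6.1p1 without regard to strand, so reads of a gene and of one that overlaps it on the other strand cannot be told apart, and reads shared by near-identical genes were dropped. The authors deposited raw read counts for 49585 mouse features per cell, with a second table of read counts per cell whose unmapped reads are given as percent of all reads. Rows that tally unassigned reads name no gene and were left out of totals and ratios.

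Cells were kept with at least 250000 reads, at most 25% unmapped reads and at most 15% spike-in reads, the limits of the study. One P2+ MEP had 27.9% unmapped reads, and 1 P2+ CMP had 57.8% and 765 reads on mouse genes. For each population the reads of a gene in all kept cells were added up and set over all reads on mouse genes, as CPM. Ratios carry exact conditional binomial intervals at 95%, and a gene without a read was set to 3 reads over the population. Cells were thinned to 100000 reads once, with a fixed seed, before cells with a read were counted. Genes were tested against a limit of 2-fold, with no significance test, since each population is 1 pool. Named were the 12 genes at each end of the ranking, which asked, after thinning, for a read in 25% of all cells and in 50% of those of the higher population, with 50 CPM there, the 5 genes at each end of the P2+ minus P2- difference, and the members of the lists. Genes below the filter that are named were picked with their values in view. Some members of the lists are counted but not reported by name here. The members and lists were chosen with earlier results of these data known. Start and end of genes are from GENCODE on GRCm38 and promoter sequences from RefSeq on GRCm38.p6. The scripts were tested on simulated data and ran in Python 3.11.15 with numpy 2.4.6, pandas 2.3.3 and scipy 1.17.1. DESeq2 1.42.0 in R 4.3.3 gave size factors for 1 alternative scaling.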

Additional observations from a re-analysis of the deposited data

Results flagged for a closer look

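Gata2, Cd24a and Nrgn were at least 2-fold apart between CMPs and MEPs in opposite directions among P2+ and P2- cells. The log2 ratio of CMP over MEP was -1.06 among P2+ and 2.31 among P2- cells for Gata2, a difference of -3.36. For Cd24a it was 1.20 and -1.08, a difference of 2.28, and for Nrgn, a neuronal and platelet calmodulin binding protein, -1.03 and 1.73, a difference of -2.76. Among P2+ cells Gata2 fell under 2-fold with equal weight for every cell (-0.82), with DESeq2 size factors (-0.90) and without the top cells (-0.97), and Nrgn without the top cells (-0.90) and without mitochondrial genes and Rn18s-rs5 in the total (-0.99). The differences were not tested, since each population is 1 pool. In levels, Cd24a stood at 296.3 CPM in P2+ CMPs, 129 CPM in P2+ MEPs, 192 CPM in P2- CMPs and 404 CPM in P2- MEPs. Nrgn stood near the filter, at 9.68, 19.8, 17.2 and 5.20 CPM in the same order.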

How the results depend on the processing

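The number of genes at least 2-fold higher in P2+ CMPs, 728, was between 630 and 829 under the alternatives that kept the filter, and that for P2+ MEPs, 529, between 465 and 562. DESeq2 size factors gave 630 and 558, equal weight for every cell 710 and 478, and leaving mitochondrial genes and Rn18s-rs5 out of the total 784 and 465. With no filter but 10 summed reads, which admits 16572 genes, 3838 and 2741 genes were past 2-fold, shares of 23.2% and 16.5% against 8.99% and 6.54%, and with a pooled level of at least 50 CPM, which leaves 4447 genes, 6.68% and 5.15%. Leaving out the 7 cells whose Cd34 reads went against the gate, a choice made after seeing the data like those on the well with Xist and Y reads and the P2+ CMP with most Klf1 reads, gave 829 and 562. With cells left out the number of genes that pass changed too, here to 8137. The scalings moved the median log2 ratio by at most 0.06. Of 88 named genes past 2-fold, 0 changed sign under 8 alternatives and 7 fell under 2-fold in at least 1 (Icam2, Hmox2, Gata2, Ikzf1, Ifnar1, Kif23 and Nrgn), while 9 others passed it. The ranked genes among the 88 were chosen with the ratio without the top cells, so that alternative could not take them under 2-fold. Using every deposited cell adds only the cells that failed the limits. Of 48 shares of cells with a read, 16 moved beyond their binomial interval when at least 5 reads were asked for, and 1 each without thinning and at 200000 reads. No paired analysis was possible because the populations are single pools whose cells carry no shared replicate number. With 1 pool per population the spread between embryos or litters cannot be given, and a gene missing from a cell may have been lost in amplification or lie below the depth.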
